A study of Mus musculus with 2 samples.

Results

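The 46 genes described here encode proteins of DNA replication (22 genes) and of mitosis (24 genes). They were listed by name, with earlier results of these data known. All 46 were among the 18685 genes measured in the tumours of mice given an antibody against SIGLEC15. In the tumours of mice given control IgG, 105 complete genes could be analysed here, and Mcm3 was the only member among them. The replication genes are Mcm2, Mcm3, Mcm4, Mcm5, Mcm6, Mcm7, Pcna, Gins2, Cdc45, Cdc6, Cdt1, Rrm1, Rrm2, Tyms, Dut, Slbp, Ung, Ccne1, Ccne2, Uhrf1, Prim1 and Pola1. The mitotic genes are Mki67, Top2a, Ube2c, Cdc20, Cenpf, Cenpe, Ccnb1, Ccnb2, Ccna2, Cdk1, Aurka, Aurkb, Plk1, Bub1, Bub1b, Birc5, Tpx2, Kif11, Kif20b, Kif23, Nusap1, Tubb5, Hmgb2 and Cks2.

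Tumours were grown under the skin from Hep1-6, a mouse hepatoma line, in wild-type male C57BL/6 mice 6 to 8 weeks old, kept free of specific pathogens on a normal diet. The mice received intraperitoneal injections of SIGLEC15 antibody or of IgG, with 3 mice per group in the study's design text and 1 single-cell library per group. Bead-enriched CD45+ cells and unsorted cells were mixed in equal parts before loading. The antibody library held 5482 cells with a median of 13714.5 UMIs (unique molecular identifiers, which count captured transcripts), and the IgG library held 5765 cells with a median of 15733 UMIs. Because there was 1 library per group, no difference has a replicate check, and every interval given is a 95% interval that covers counting error only.

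Each cell carried the name of 1 of 30 clusters, given by the authors, and the members were compared between clusters and between classes made of clusters of like name. The tumour class held 3213 antibody cells in 11 clusters, the T cell class 520 cells and the macrophage class 532 cells. The class names were checked against marker genes. The 8 hepatoma markers summed to 13403 CPM (UMIs of a gene scaled to a total of 1000000 UMIs) in tumour cells, the 7 T cell markers to 3163 CPM in T cells, and the 7 macrophage markers to 12526 CPM in macrophages. The macrophage markers also summed to 7042 CPM in tumour cells, of which Apoe, a gene that hepatocytes use too, made up 7030 CPM, against 4413 CPM of Apoe in macrophages. The cluster CD3_T held markers of both kinds, with 4362 CPM of natural killer cell markers and 2310 CPM of T cell markers. Of its 138 cells, 111 held at least 1 UMI of T cell markers. Gzma, 1 of the natural killer cell markers, also stood at 408 CPM in CD8_T_2, so that list does not separate the 2 cell types cleanly. The cluster named DC held 97.0 CPM of dendritic cell markers, 2407 CPM of monocyte markers and 3956 CPM of neutrophil markers. MDSC_1 to MDSC_4 held 58449 CPM of neutrophil markers, and these neutrophil-like cells, a type that as mature cells does not divide, are given below for comparison. Their members' UMIs can hold free RNA and transcripts of their own, and these parts were not tested. Members above the tumour level were Hmgb2, at 519 CPM there and 281 CPM in tumour cells, and Cks2, at 316 CPM there and 154 CPM in tumour cells. Kif23, at 47.2 CPM there and 14.6 CPM in tumour cells, and Slbp, at 50.7 CPM there and 26.6 CPM in tumour cells, also lay above it. The libraries shared 11 cell barcodes.

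DNA is copied in S phase, after proteins that license replication origins have loaded the MCM helicase onto DNA, cyclin E has driven entry into S phase and enzymes of nucleotide synthesis have supplied deoxynucleotides. Transcripts of these genes are known to build up around the passage of G1 into S phase, under E2F transcription factors. Transcripts of cyclin B, of the mitotic kinases and of kinetochore and spindle proteins build up later, in G2 and mitosis, and many of their promoters are known to hold a CHR element and CCAAT boxes read by the DREAM and MuvB complexes and by NF-Y. A few members belong to both stages: Top2a untangles DNA in S phase and mitosis, Cdk1 drives entry into mitosis and is already made in S phase, and Tubb5, Hmgb2 and Cks2 encode a tubulin, a chromatin protein and a small cyclin-dependent kinase partner that are also made outside mitosis. For that reason the mitotic sum is also given over the 21 mitotic genes without Tubb5, Hmgb2 and Cks2.

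Promoter windows set the replication and mitotic lists side by side in sequence before their values are given. RefSeq windows on GRCm38.p6, running from 250 bases before to 50 bases after a gene's start, were found for 40 of the 46 members, in 42 windows, since Mcm7 and Uhrf1 have 2 windows each. Mcm4, Gins2, Ccne2, Ccna2, Aurkb and Tpx2 were not matched. The E2F letters TTTGGCGC or TTTCGCGC, searched on both strands, stood in 7 of 21 windows of replication genes (Mcm3, Mcm5, Mcm6, Cdt1, Pola1 and 1 window each of Mcm7 and Uhrf1) and in 1 of 21 windows of mitotic genes, that of Cdk1. Among all 32851 windows 0.813% held them. The CHR letters TTTGAA, on either strand, stood in 2 of 21 windows of replication genes (Mcm2 and Cdc45), in 14 of 21 windows of mitotic genes and in 17.9% of all windows. The letters CCAAT, on either strand, stood in 15 of 21 replication windows, in 18 of 21 mitotic windows and in 37.4% of all windows. Over the 17044 windows of genes in the antibody matrix the shares were 1.26% for E2F, 13.5% for CHR and 37.1% for CCAAT. A match describes these letters in these windows and does not show that a factor binds there.

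Of each kind, 2 promoters are shown, with that of Cdk1 after them because it holds both kinds of letters. Each sequence is the 200 bases before the start, 5′ to 3′ on the strand of the gene, and capitals mark the E2F or CHR letters, read on either strand. In Mcm5 and in Mcm6 an E2F match on the strand of the gene overlaps a match on the opposite strand. Mcm5 lies at chr8:75109309-75109508 (plus strand) and Mcm6 at chr1:128359706-128359905 (minus strand). Cdc20 lies at chr4:118437344-118437543 (minus strand), Ube2c at chr2:164769729-164769928 (plus strand) and Cdk1 at chr10:69352913-69353112 (minus strand).
Mcm5: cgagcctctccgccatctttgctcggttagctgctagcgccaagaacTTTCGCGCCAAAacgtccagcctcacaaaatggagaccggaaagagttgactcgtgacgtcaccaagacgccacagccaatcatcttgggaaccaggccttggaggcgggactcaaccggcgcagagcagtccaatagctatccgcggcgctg
Mcm6: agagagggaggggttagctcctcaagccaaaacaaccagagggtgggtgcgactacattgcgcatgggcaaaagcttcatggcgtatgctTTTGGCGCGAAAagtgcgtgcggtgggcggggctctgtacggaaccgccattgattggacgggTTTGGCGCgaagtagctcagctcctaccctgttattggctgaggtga
Cdc20: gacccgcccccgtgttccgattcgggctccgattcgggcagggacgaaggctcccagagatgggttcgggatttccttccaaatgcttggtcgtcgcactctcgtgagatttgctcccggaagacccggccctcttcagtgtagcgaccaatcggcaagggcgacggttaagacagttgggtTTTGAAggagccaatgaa
Ube2c: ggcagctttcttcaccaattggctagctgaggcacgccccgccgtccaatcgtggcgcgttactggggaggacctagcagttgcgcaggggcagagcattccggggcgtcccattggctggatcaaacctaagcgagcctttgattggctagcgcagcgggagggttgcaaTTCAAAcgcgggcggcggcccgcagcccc
Cdk1: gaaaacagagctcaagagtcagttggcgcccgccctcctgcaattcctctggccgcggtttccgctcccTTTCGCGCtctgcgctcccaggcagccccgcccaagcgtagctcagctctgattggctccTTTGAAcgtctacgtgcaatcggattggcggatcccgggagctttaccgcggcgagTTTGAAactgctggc
The CHR letters began 18 bases before the start in Cdc20, 29 bases before it in Ube2c, and 15 and 71 bases before it in Cdk1.

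The comparison of classes asked how large a share of the UMIs of each cell type of the antibody-treated tumours these transcripts made up. T cells carried the most of both lists per UMI, macrophages came next, and tumour cells, although they are cells of a growing hepatoma line, lay below both. This order is one of shares and not of UMIs per cell. Tumour cells were deeper, with a median of 20428 UMIs against 2808.5 in T cells and 6946.5 in macrophages. They held 45857 of the 58607 replication UMIs and 140485 of the 177997 mitotic UMIs of the library. The 22 replication genes summed to 2464 CPM in T cells (2400 to 2529), 1013 CPM in macrophages (981 to 1045) and 733 CPM in tumour cells (727 to 740). The 24 mitotic genes summed to 6726 CPM in T cells (6620 to 6834), 3218 CPM in macrophages (3162 to 3274) and 2247 CPM in tumour cells (2235 to 2259). The 21 mitotic genes without Tubb5, Hmgb2 and Cks2 kept this order, with 3171 CPM in T cells, 1605 CPM in macrophages and 1081 CPM in tumour cells. The place of macrophages above tumour cells rested largely on the cluster Macrophage_2, with 1499 CPM of the replication genes. Macrophage_1 (559 CPM) and Macrophage_3 (702 CPM) lay below the tumour sum, and Macrophage_4 (854 CPM) above it. Leaving out macrophages that held T cell markers lowered both macrophage sums but kept the order, as given in the last section. In neutrophil-like MDSC_1 to MDSC_4 the 24 mitotic genes summed to 1232 CPM (1158 to 1309), of which Hmgb2, Cks2 and Tubb5 made up 76.6%. The replication sum there was 226 CPM (195 to 261) and the sum of the 21 mitotic genes 289 CPM (254 to 327). The DC cluster held 467 CPM and 295 CPM, and fibroblasts with endothelial cells held 590 CPM and 851 CPM. Hepatoma markers summed to 650 CPM in T cells, 785 CPM in macrophages and 1235 CPM in MDSC_1 to MDSC_4, and the part of free tumour RNA in the members' levels was not tested.

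A few members made up much of each sum. Levels are CPM, not divided by transcript length, so they rank members by their share of captured transcripts only. In T cells Hmgb2, a chromatin protein that bends DNA, stood at 2403 CPM, Tubb5, a beta-tubulin, at 921 CPM, and Top2a, the DNA topoisomerase of dividing cells, at 539 CPM. These 3 genes made up 57.4% of the mitotic UMIs of T cells. The leading replication genes of T cells were Dut, which removes dUTP so that uracil is kept out of DNA, at 569 CPM, the sliding clamp Pcna at 224 CPM and the helicase subunit Mcm3 at 183 CPM. In macrophages Tubb5 stood at 783 CPM, Hmgb2 at 743 CPM and Top2a at 276 CPM, while Pcna led the replication genes with 167 CPM, before Dut at 104 CPM and Mcm3 at 87.2 CPM. In tumour cells Tubb5 stood at 731 CPM, Hmgb2 at 281 CPM and Ube2c, which hands ubiquitin to the complex that ends mitosis, at 178 CPM. Their leading replication genes were Dut at 115 CPM and the helicase subunits Mcm7 at 93.0 CPM and Mcm6 at 72.6 CPM. The lowest members were Cdc6 (18.6 CPM) and Bub1 (34.0 CPM) in T cells, Ccne2 (8.72 CPM) and Bub1 (21.5 CPM) in macrophages, and Cdc45 (4.17 CPM) and Kif23 (14.6 CPM) in tumour cells.

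Set against all other cells, T cells were higher in 46 of 46 members, and 38 were more than 2-fold higher (18 replication and 20 mitotic genes). Over all genes with at least 10 UMIs, 23.0% were more than 2-fold higher in T cells, and all 46 members passed that minimum in every contrast given here. The median log2 ratio of the members was 1.65, against 0.05 over all genes. The clusters behind these classes were made from the same expression values, so the ratios are a description and were not tested. Tumour cells held 62522017 of the 74168827 antibody UMIs, so the cells against which T cells or macrophages are set are mostly tumour cells.

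The largest replication ratio in T cells was that of Cdc45, a part of the active helicase, at 33.6 CPM in T cells and 4.53 CPM in the other cells (7.41-fold, 5.70 to 9.54). Dut followed with a ratio of 5.04 (4.75 to 5.35) and Mcm4, a helicase subunit, with a ratio of 5.04 (4.34 to 5.81). The cyclin E genes and the licensing factor Cdt1 stood at the low end. Ccne2 had 19.9 CPM in T cells and 14.9 CPM in the other cells, a ratio of 1.34 whose interval (0.969 to 1.80) holds 1. Cdt1 had a ratio of 1.77 (1.42 to 2.18) and Ccne1 a ratio of 1.98 (1.504 to 2.57). Among mitotic genes Hmgb2 led with 2403 CPM in T cells and 310 CPM in the other cells (7.76-fold, 7.53 to 7.99). Nusap1, which binds spindle microtubules, had a ratio of 5.04 (4.51 to 5.61), and the spindle motor Kif11 a ratio of 4.98 (4.28 to 5.76). The mitotic kinase Aurka differed least, with 34.9 CPM in T cells and 30.2 CPM in the other cells, and its interval (0.911 to 1.45) holds 1. Tubb5 had a ratio of 1.27 and Cks2 a ratio of 1.55.

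Macrophages were higher than the other cells in 36 of 46 members, but only 10 members were more than 2-fold higher and 0 more than 2-fold lower. The share of all genes more than 2-fold higher in macrophages was 26.1%, close to the members' 10 of 46, so by this count the members did not stand out. The share of all genes more than 2-fold lower was 21.8%, against the members' 0 of 46. The members' median log2 ratio was 0.52, against 0.08 over all genes. T cell markers summed to 520 CPM in macrophages. Macrophages that held any T cell marker UMI and T cells that held any macrophage marker UMI (Apoe not counted) were then left out. Without these mixed cells, 4 members were more than 2-fold higher and 3 more than 2-fold lower, and no share over all genes is given for that setting. Cd4, counted among the T cell markers, stood at 30.2 to 35.1 CPM in the macrophage clusters, so macrophages with a UMI of Cd4 alone were left out too. Pcna had 167 CPM in macrophages and 71.4 CPM in the other cells (2.33-fold, 2.15 to 2.53), and Pola1, the catalytic subunit of the primase-bound DNA polymerase, had a ratio of 2.18 (1.72 to 2.74). Ung, which cuts uracil out of DNA, had a ratio of 2.095 (1.58 to 2.74). Among mitotic genes Kif23, a motor of cell division's last step, had 49.0 CPM in macrophages and 16.6 CPM in the other cells (2.95-fold, 2.52 to 3.44). The spindle checkpoint kinase Bub1b had a ratio of 2.50 (2.11 to 2.93) and Kif11 a ratio of 2.18 (1.85 to 2.56). Lower in macrophages were Ccne2 (0.567, 0.390 to 0.797), the primase subunit Prim1 (0.682, 0.515 to 0.886), Dut (0.816, 0.737 to 0.901), Cks2 (0.562, 0.503 to 0.626), Aurka (0.733, 0.585 to 0.907) and Cdc20, an activator of that mitosis-ending complex (0.794, 0.670 to 0.935).

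Tumour cells lay below the other cells in 38 of 46 members. Of the members, 10 were more than 2-fold lower and 0 more than 2-fold higher, while 30.5% of all genes were more than 2-fold lower and 13.2% more than 2-fold higher. The members' 10 of 46 lower is a smaller share than that of all genes, and their median log2 ratio of -0.59 lay below the -0.26 of all genes. The count of 10 moved with the processing: it was 4 as a mean over cells or with those mixed T cells and macrophages left out, and 3 with mitochondrial and ribosomal protein genes left out of the totals. Shares over all genes are not given for these settings. Cdc45 had 4.17 CPM in tumour cells and 12.1 CPM in the other cells (0.345, 0.280 to 0.426), Slbp, which binds histone mRNA, had a ratio of 0.444 (0.406 to 0.485), and Mcm4 a ratio of 0.465 (0.417 to 0.520). Hmgb2 (0.324, 0.317 to 0.332), Kif23 (0.379, 0.338 to 0.426) and Kif11 (0.443, 0.397 to 0.495) were the lowest mitotic genes. The 8 members above 1 were led by Ccne2, with 15.9 CPM in tumour cells and 10.6 CPM in the other cells (1.502, 1.24 to 1.83), and Aurka, with 32.0 CPM in tumour cells and 21.6 CPM in the other cells (1.49, 1.30 to 1.70). Prim1 (1.18, 1.02 to 1.37), Mcm7 (1.11, 1.04 to 1.19), Cks2 (1.12, 1.06 to 1.18) and Cdc20 (1.12, 1.02 to 1.23) followed. Ccne2 and Aurka were thus the members with the largest ratio in tumour cells of their lists and the smallest ratio in T cells.

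Genes of the same pathways outside the 46 members were also counted. In T cells 34 of 42 further replication genes and 35 of 44 further mitosis genes with a value were more than 2-fold higher than in the other cells, against 23.0% of all genes. Among them were Cdc7, the kinase that fires origins (7.56-fold), Rpa2, of the single-strand binding complex (6.96-fold), the spindle motor Kif15 (10.4-fold) and the centromere histone Cenpa (6.34-fold). In macrophages 6 of 42 and 13 of 44 were more than 2-fold higher, against 26.1% of all genes, so these counts did not stand out. They were led by the primase subunit Prim2 (3.03-fold) and by Kif15 (3.23-fold). In tumour cells 10 of 42 and 14 of 44 were more than 2-fold lower, near or below the 30.5% of all genes, and 1 of each list was more than 2-fold higher: the clamp loader subunit Rfc3 (2.19-fold) and Pttg1, the securin that holds back chromatid separation (3.14-fold).

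Among genes of G1 and of cell cycle control, different D-type cyclins were high in different classes. Tumour cells carried Ccnd1, cyclin D1, at 255 CPM against 102 CPM in the other cells (2.49-fold), and held 0.384 CPM of Ccnd2, cyclin D2, against 137 CPM in the other cells. T cells carried Ccnd2 at 176 CPM against 17.0 CPM in the other cells (10.3-fold), and 16.4 CPM of Ccnd1 against 237 CPM. Macrophages carried Ccnd2 at 124 CPM against 16.2 CPM in the other cells (7.61-fold). The inhibitors of cyclin D kinases Cdkn2b and Cdkn2a were 4.02-fold and 3.02-fold higher in tumour cells than in the other cells, at 58.3 CPM and 80.8 CPM. Of the 26 genes of this list, 4 were more than 2-fold higher and 8 more than 2-fold lower in tumour cells, close to the 13.2% and 30.5% of all genes.

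Within each class the transcripts were concentrated in a few clusters. The plot of both sums by cluster shows clusters that were low in both lists, such as Tumor_1, and high in both, such as CD8_T_1. The ratio of the lists still differed between clusters. In the tumour class the replication sum was highest in Tumor_7, at 2411 CPM (2367 to 2455), and the sum of the 21 mitotic genes was highest in Tumor_2, at 3652 CPM (3615 to 3688). Tumor_7 held 2092 CPM of the 21 mitotic genes and Tumor_2 963 CPM of the replication genes. Tumor_1 was lowest in both, with 258 CPM and 111 CPM. The log2 ratio of the 21 mitotic genes to the replication genes was -0.20 in Tumor_7 (-0.24 to -0.17), 1.92 in Tumor_2 (1.89 to 1.95) and -1.21 in Tumor_1 (-1.32 to -1.11). Tumor_4 lay between the first clusters, with 1215 CPM and 2413 CPM, but its cells were shallow, with a median of 2483 UMIs against 23388 in Tumor_7 and 21330.5 in Tumor_2. The other 7 tumour clusters held 397 to 824 CPM of the replication genes and 154 to 1169 CPM of the 21 mitotic genes, with Tumor_9 highest and Tumor_6 lowest in both.

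**Figure D1:**
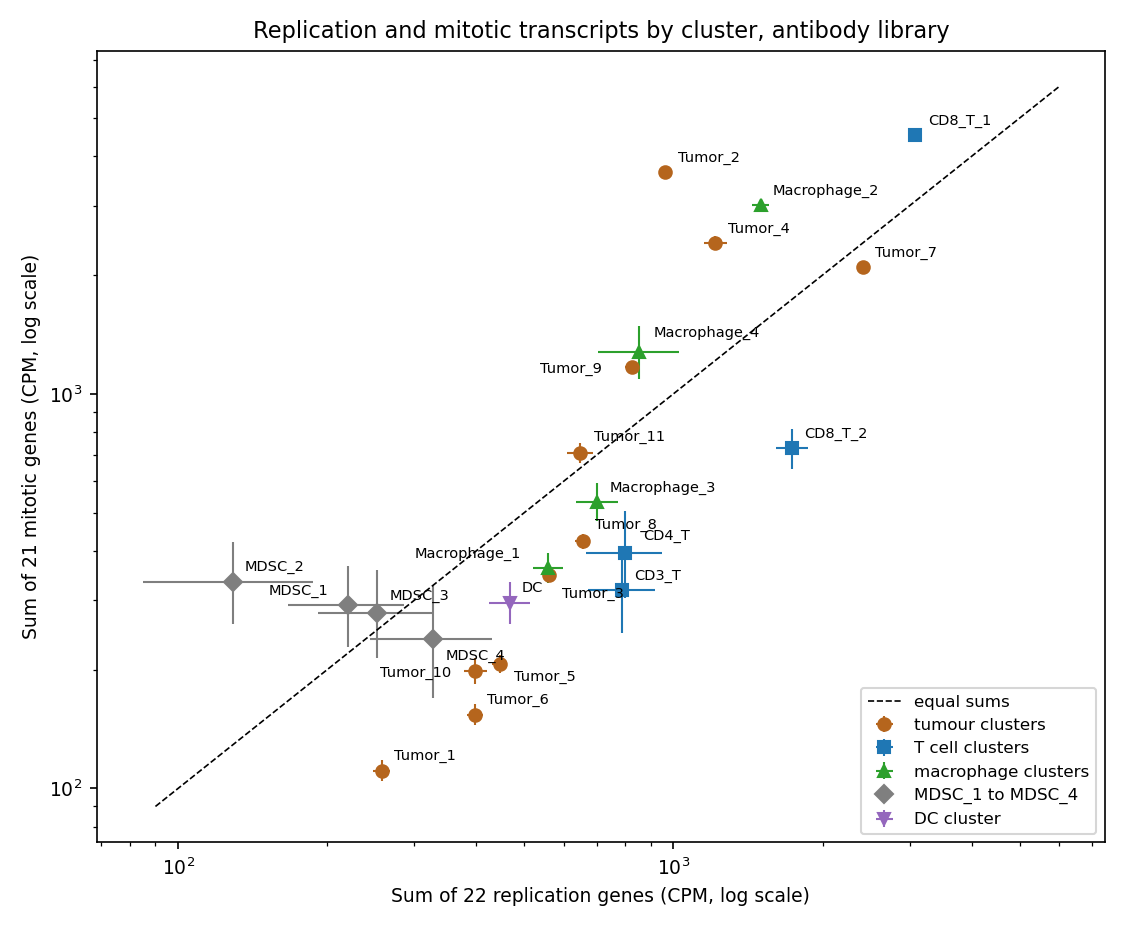
Sum of the 21 mitotic genes against the sum of the 22 replication genes in each cluster of the antibody library, both in CPM on log scales, with 95% Poisson intervals as bars and equal sums as the dashed line. Tumor_2 (3652 CPM mitotic, 963 CPM replication) lies far above the line and Tumor_7 (2092 and 2411 CPM) just below it, CD8_T_1 is highest in both sums and CD8_T_2 lies below the line.

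Tumor_7 was set against Tumor_2 after the sums had been seen, so the contrast is a description of 2 clusters that were themselves made from expression. All 22 replication genes were higher in Tumor_7, and 18 were more than 2-fold higher, while 4.04% of all genes with at least 10 UMIs were. Of the 24 mitotic genes, 21 were lower in Tumor_7, 11 of them more than 2-fold, while 3.16% of all genes were more than 2-fold lower. The median log2 ratio was 1.34 for the replication genes and -0.90 for the mitotic genes, against 0.00 over all genes. The plot of each member's ratio shows that the intervals of no replication gene reach below 1.26.

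The largest ratios were those of Ung, both cyclin E genes and Cdc6. Ccne2 had 72.5 CPM in Tumor_7 and 12.1 CPM in Tumor_2 (5.99-fold, 4.88 to 7.39), and Ccne1 had 58.3 CPM in Tumor_7 and 10.96 CPM in Tumor_2 (5.32-fold). The licensing factor Cdc6 had 45.0 CPM in Tumor_7 and 7.72 CPM in Tumor_2 (5.83-fold, 4.50 to 7.62), and Ung had 23.7 CPM in Tumor_7 and 2.67 CPM in Tumor_2 (8.90-fold, 5.85 to 14.0). These 4 genes stood apart from the rest, since the next ratio was that of Mcm4 at 3.37. The 6 helicase subunits Mcm2 to Mcm7 spanned ratios of 2.01 for Mcm7 to 3.37 for Mcm4. Enzymes of nucleotide supply ranged from 1.75 for Rrm1, the large subunit of ribonucleotide reductase, through 1.87 for Dut and 1.94 for thymidylate synthase, Tyms, to 3.33 for Rrm2, the small subunit. Pcna had a ratio of 3.09, and Uhrf1, which carries DNA methylation over to the new strand, one of 3.08. Cdt1 stood at 2.36, the helicase parts Cdc45 and Gins2 at 2.55 and 2.04, Slbp at 2.19, Prim1 at 2.15, and Pola1 was the lowest replication gene at 1.59 (1.26 to 1.99).

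At the other end stood Cdc20, Ccnb2 and Cenpe. Cdc20 had 40.5 CPM in Tumor_7 and 188 CPM in Tumor_2 (0.215, 0.185 to 0.249). Cyclin B2, Ccnb2, had 20.3 CPM in Tumor_7 and 79.1 CPM in Tumor_2 (0.256), and the kinetochore motor Cenpe had 38.1 CPM in Tumor_7 and 148 CPM in Tumor_2 (0.257). Ccnb1, Cenpf, Plk1, Aurka, Kif23, Ube2c, Tpx2 and Bub1b followed, with ratios of 0.290 to 0.410. Cyclin A2, Ccna2, which acts from S phase on, had 55.3 CPM in Tumor_7 and 81.6 CPM in Tumor_2 (0.677), and the proliferation marker Mki67 264 CPM in Tumor_7 and 388 CPM in Tumor_2 (0.679). Cks2, Nusap1, Bub1, the survivin gene Birc5 and the motor gene Kif20b lay between 0.522 and 0.717. Near 1 were Kif11 (0.965), Tubb5 (0.943) and Hmgb2 (0.861). Above 1 were Aurkb, the kinase of the chromosomal passenger complex, with 62.8 CPM in Tumor_7 and 42.6 CPM in Tumor_2 (1.48, 1.27 to 1.71), Top2a with 476 CPM in Tumor_7 and 349 CPM in Tumor_2 (1.37, 1.30 to 1.44), and Cdk1 with 186 CPM in Tumor_7 and 176 CPM in Tumor_2. The interval of Cdk1 (0.974 to 1.14) holds 1.

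**Figure D2:**
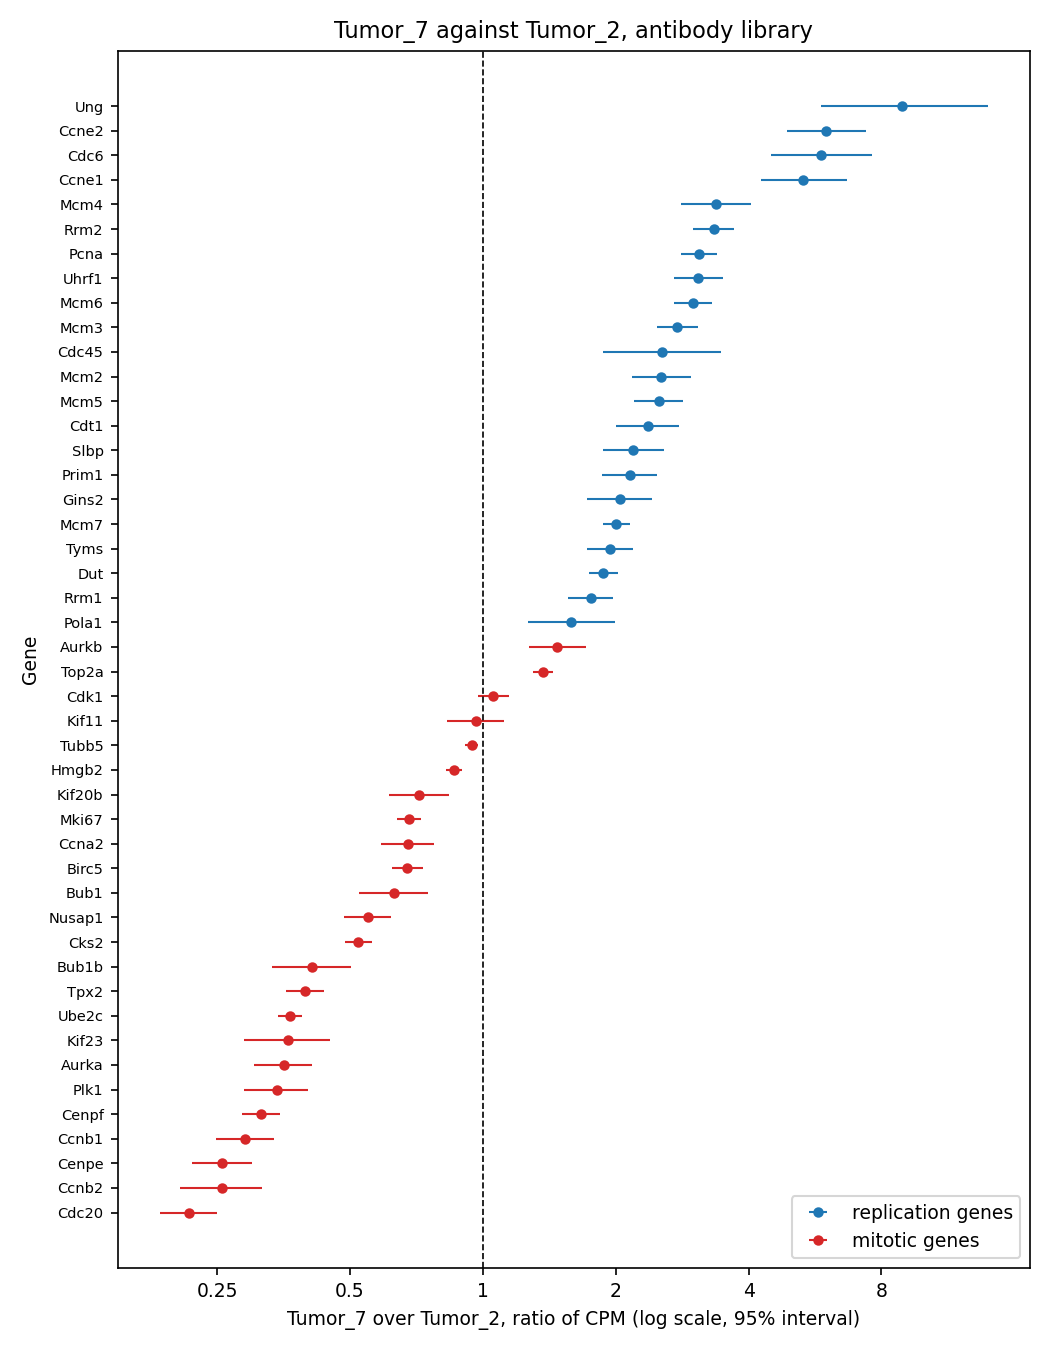
Ratio of CPM in Tumor_7 over Tumor_2 for each of the 46 members on a log scale, with 95% intervals as bars, replication genes in blue and mitotic genes in red, and the dashed line at a ratio of 1. All 22 replication genes lie right of the line, from 1.59 (Pola1) to 8.90 (Ung), and 21 of 24 mitotic genes lie left of it, down to 0.215 (Cdc20).

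Over the 11 tumour clusters each of the 22 replication genes was highest in Tumor_7. Of the 24 mitotic genes, 19 were highest in Tumor_2, Top2a and Aurkb in Tumor_7, and Cdk1 and Nusap1 in the shallow Tumor_4, where Nusap1 had 127 CPM against 124 CPM in Tumor_2. Tubb5 was the exception, with its highest level in Tumor_1, at 1221 CPM, and its lowest in Tumor_8, at 373 CPM. Tumor_1 held the lowest level of most other members, among them Mcm5 at 2.85 CPM, Mki67 at 5.37 CPM and Kif11 at 0.987 CPM. Against the rest of the tumour class, Tumor_2 had 27 members more than 2-fold higher, 4 replication and 23 mitotic genes, and 1 more than 2-fold lower, while 5.14% of all genes were higher and 5.01% lower by that rule. Cenpf, of the outer kinetochore, led with 303 CPM in Tumor_2 and 26.9 CPM in the rest (11.3-fold, 10.6 to 12.02), before Nusap1 (9.01-fold) and Cdc20 (8.98-fold). The replication genes with the largest ratio were Pola1 (2.41-fold), Cdc45 (2.23-fold) and Tyms (2.16-fold). The member lower in Tumor_2 was Ung, at 2.67 CPM against 7.75 CPM in the rest (0.344, 0.226 to 0.505), and Ccne2 (0.728) and Ccne1 (0.754) also lay below 1. All 44 further mitosis genes and 13 of 42 further replication genes were more than 2-fold higher in Tumor_2, led by the spindle pole gene Aspm (12.4-fold) and by Dbf4 (3.55-fold).

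Further pathway genes divided in the same way between Tumor_7 and Tumor_2. Of 42 further replication genes, 27 were more than 2-fold higher in Tumor_7 and 0 more than 2-fold lower. Of 44 further mitosis genes, 0 were more than 2-fold higher and 12 more than 2-fold lower. Over all genes with at least 10 UMIs, 4.04% were more than 2-fold higher and 3.16% more than 2-fold lower. Claspin, Clspn, a mediator of the replication checkpoint, had 101 CPM in Tumor_7 and 23.4 CPM in Tumor_2 (4.31-fold), and the histone chaperone subunit Chaf1b had a ratio of 3.93. Dbf4, the activating partner of Cdc7, went the other way, with 36.8 CPM in Tumor_7 and 52.3 CPM in Tumor_2 (0.704, 0.592 to 0.835). In the G1 and control list 4 genes were more than 2-fold higher in Tumor_7 and 0 more than 2-fold lower. They were E2f7, E2f8, E2f1 and Rbl1 (2.16-fold), and E2f2, E2f3 and E2f4, also on the list, were not among them. E2f1, an activator of the G1 to S program, had 48.5 CPM in Tumor_7 and 10.2 CPM in Tumor_2 (4.76-fold, 3.77 to 6.04), and the repressors E2f7 and E2f8 had ratios of 5.93 (3.70 to 9.78) and 4.97 (3.47 to 7.21).

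**Figure D3:**
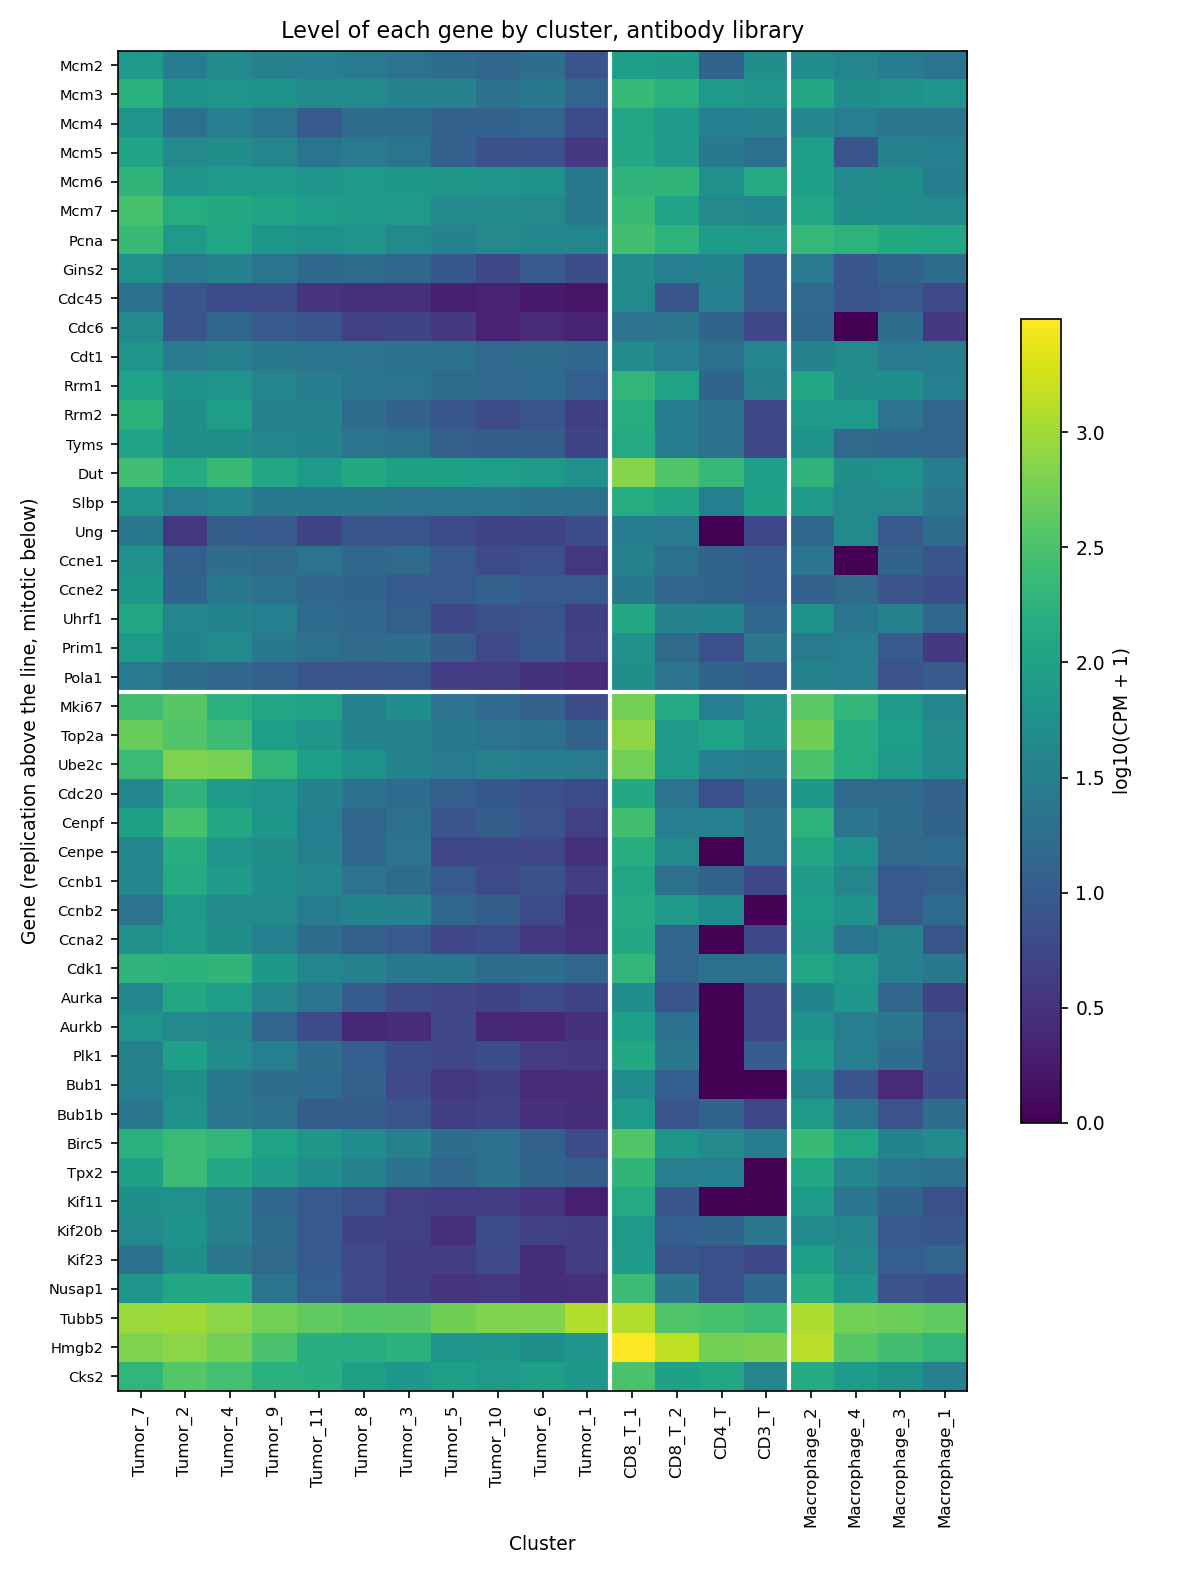
Level of each of the 46 members in each tumour, T cell and macrophage cluster of the antibody library, as log10 of CPM plus 1, with replication genes above the horizontal line and mitotic genes below it. Replication genes are brightest in Tumor_7 among the tumour clusters and 19 of 24 mitotic genes in Tumor_2, most members are bright in CD8_T_1 and Macrophage_2, and Tubb5 stays bright in Tumor_1 (1221 CPM).

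In the T cell class the members were held mainly by CD8_T_1, a cluster of 208 cells with T cell markers at 2816 CPM. It held 3075 CPM of the replication genes (2987 to 3165) and 9171 CPM of the 24 mitotic genes (9018 to 9326), the highest of any cluster in both lists. CD8_T_2, the other CD8 cluster, held 1735 CPM of the replication genes (1607 to 1870) but only 727 CPM of the 21 mitotic genes (645 to 817), against 4520 CPM in CD8_T_1. Its log2 ratio of the 21 mitotic genes to the replication genes was -1.25 (-1.46 to -1.05), against 0.56 in CD8_T_1 (0.50 to 0.61). CD4_T and CD3_T held 797 and 787 CPM of the replication genes and 395 and 319 CPM of the 21 mitotic genes. Single replication genes differed unevenly between these clusters. Mcm6 had 194 CPM in CD8_T_2 and 188 CPM in CD8_T_1, Mcm3 had 166 CPM in CD8_T_2 and 215 CPM in CD8_T_1, and Cdc6 had 23.0 CPM in CD8_T_2 and 20.1 CPM in CD8_T_1. Rrm2 had 28.1 CPM in CD8_T_2 and 143 CPM in CD8_T_1, and Tyms had 28.1 CPM in CD8_T_2 and 136 CPM in CD8_T_1. Mcm7 had 105 CPM in CD8_T_2 and 229 CPM in CD8_T_1, and Rrm1 had 102 CPM in CD8_T_2 and 200.1 CPM in CD8_T_1. Dut was the highest replication gene of both clusters, with 355 CPM in CD8_T_2 and 731 CPM in CD8_T_1.

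Against the rest of the T cell class, CD8_T_1 had 36 members more than 2-fold higher, 12 of 22 replication genes and 24 of 24 mitotic genes, while 9.69% of all genes were, and 0 more than 2-fold lower, while 8.13% of all genes were. The mitotic genes Kif11 (35.1-fold, 11.8 to 172), Ccna2 (16.4-fold, 7.41 to 45.3) and Nusap1 (14.7-fold, 8.46 to 27.8) led, and the wide intervals follow from counts of 3, 6 and 13 UMIs in the rest of the class. Rrm2 (7.32-fold), Tyms (6.98-fold) and Uhrf1 (4.29-fold) led the replication genes. Mcm6 (1.27-fold, 1.01 to 1.59), Cdc6 (1.28-fold, 0.638 to 2.75) and Cdt1 (1.58-fold, 0.978 to 2.66) differed least, and the intervals of Cdc6 and Cdt1 hold 1. Of the further genes, 25 of 42 for replication and 42 of 44 for mitosis were more than 2-fold higher in CD8_T_1. E2f8 stood at 34.1 CPM in CD8_T_1, against 1.30 CPM in the rest of the class. Ccnd2 had 125 CPM in CD8_T_1 and 275 CPM in the rest of the class. Of the 208 cells of CD8_T_1, 14 held at least 3 UMIs of macrophage markers (Apoe not counted), and the 154 cells with 0 such UMIs held 3152 CPM of the replication genes and 9442 CPM of the mitotic genes.

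In the macrophage class Macrophage_2, with 158 cells, held 1499 CPM of the replication genes (1442 to 1558) and 3005 CPM of the 21 mitotic genes (2925 to 3088). Macrophage_1, Macrophage_3 and Macrophage_4 held 559, 702 and 854 CPM of the replication genes and 362, 532 and 1277 CPM of the 21 mitotic genes, and Macrophage_4 was shallow with a median of 1053 UMIs. Against the rest of the class, Macrophage_2 had 38 members more than 2-fold higher, 14 of 22 replication genes and 24 of 24 mitotic genes, while 10.3% of all genes were. Nusap1 led with 148 CPM in Macrophage_2 and 9.77 CPM in the rest (15.2-fold, 9.71 to 24.9), before Cenpf (13.1-fold) and Kif11 (9.51-fold). Tyms (4.74-fold), Dut (4.65-fold) and Rrm2 (4.42-fold) led the replication genes, and Ung (0.819, 0.467 to 1.41) and Cdt1 (1.19, 0.823 to 1.72) had intervals that hold 1. Outside the members, 34 of 42 further replication genes and 42 of 44 further mitosis genes were more than 2-fold higher, and the condensin gene Ncaph had 43.4 CPM in Macrophage_2 and 1.86 CPM in the rest (23.3-fold).

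Macrophage_2 also carried T cell transcripts. All 7 T cell markers were present and summed to 956 CPM, against 86.5 CPM in Macrophage_1, and 86 of the 158 cells held at least 3 UMIs of them. The 41 cells with 0 UMIs of T cell markers and at least 3 of macrophage markers held 1167 CPM of the replication genes (1067 to 1275) and 6977 CPM of the 24 mitotic genes (6728 to 7232), against 1499 CPM and 5689 CPM in the whole cluster. The 86 cells with at least 3 T cell marker UMIs held 1591 CPM and 4890 CPM. In cells of Macrophage_2 without T cell marker UMIs the mitotic sum was thus higher than in the whole cluster, and the replication sum lower. Doublet calling found 3 doublets among 5482 cells and was not used to remove cells. Whether the T cell transcripts came from droplets that held a T cell and a macrophage was not tested.

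The members were also counted cell by cell, after each cell was thinned to 1000 UMIs because median depths ran from 1047 UMIs in MDSC_1 to MDSC_4 to 20428 in tumour cells. A UMI of at least 1 replication gene was expected in 69.1% of T cells (64.7 to 73.1%), 47.7% of macrophages (43.2 to 52.3%) and 45.1% of tumour cells (43.3 to 46.8%). The order of macrophages and tumour cells turned with the mixed T cells and macrophages left out, at 41.5% of macrophages against 45.1% of tumour cells. In MDSC_1 to MDSC_4, of which 405 of 707 cells were deep enough, the share was 18.5% (14.9 to 22.7%) for the replication genes and 22.1% (18.3 to 26.6%) for the 21 mitotic genes. Without thinning, a replication UMI was found in 80.6% of T cells, 82.1% of macrophages and 97.4% of tumour cells, an order that follows depth. For the 21 mitotic genes the thinned shares were 56.8% in T cells, 47.5% in macrophages and 40.6% in tumour cells. The DC cluster, at 26.4% and 18.3%, lay near the neutrophil-like cells.

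Counting both lists in the same cell separated the clusters again. In CD8_T_1, 84.4% of cells were expected to hold UMIs of both lists and 0.139% of neither. In Tumor_2, 36.6% held mitotic UMIs only, 5.34% replication UMIs only and 53.9% both. In Tumor_7 the order was turned, with 7.84% mitotic only, 17.3% replication only and 72.9% both. CD8_T_2 had the largest share with replication UMIs only among the clusters plotted, at 39.5%, with 11.2% mitotic only and 27.5% both. Macrophage_2 held 59.5% with both lists, and Tumor_1 held 70.9% with neither, close to the 64.1% of MDSC_1 to MDSC_4. For single genes, Mki67 was expected in 45.1% of CD8_T_1 cells, 30.2% of Tumor_2 and 30.2% of Macrophage_2 cells, and in 1.78% of MDSC_1 to MDSC_4, and Mcm3 in 16.9% of CD8_T_1 cells, 15.8% of Tumor_7 cells and 0.165% of MDSC_1 to MDSC_4.

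**Figure D4:**
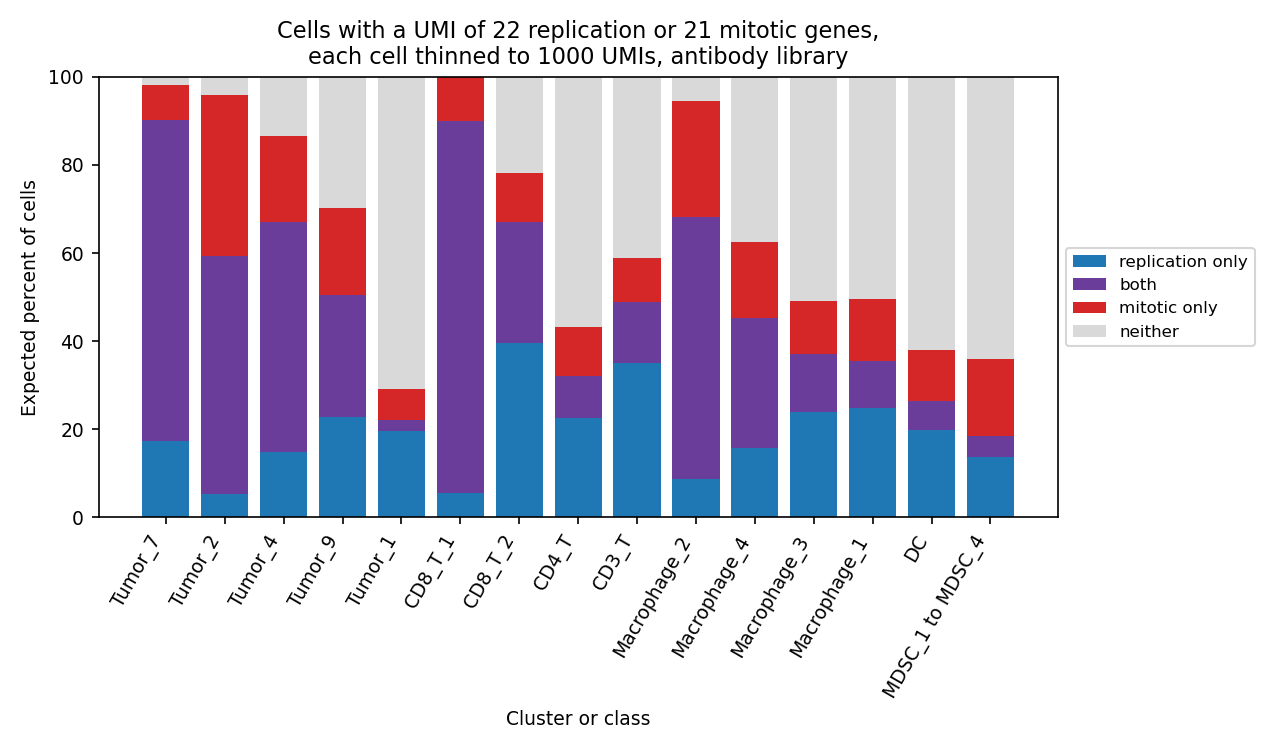
Expected percent of cells with a UMI of the 22 replication genes only, of the 21 mitotic genes only, of both or of neither, after thinning to 1000 UMIs, in clusters of the antibody library and in MDSC_1 to MDSC_4 for comparison. Both lists are found in 84.4% of CD8_T_1 cells and 72.9% of Tumor_7 cells, Tumor_2 has the largest mitotic-only part of the clusters plotted (36.6%), and Tumor_1 lies near MDSC_1 to MDSC_4 with 70.9% in neither.

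Cells of 1 cluster varied widely. In Tumor_7 the replication sum of single cells had a median of 2437 CPM, with the middle of the cells between 1995 and 2769 CPM (quartiles) and all cells between 1034 and 5013 CPM. In Tumor_2 the median was 874 CPM (quartiles 652 and 1183 CPM), and its highest cell reached 2856 CPM. For the 21 mitotic genes the medians were 1964 CPM in Tumor_7 (quartiles 1171 and 2844 CPM) and 2939 CPM in Tumor_2 (quartiles 1924 and 4918 CPM). The lower quartile of the replication sum in Tumor_7 thus lay above the upper quartile in Tumor_2, while the quartile ranges of the mitotic sum overlapped. In CD8_T_1 the median replication sum was 2864 CPM (quartiles 1910 and 4094 CPM), against 1172 CPM in CD8_T_2 (quartiles 494 and 2403 CPM), where 14.2% of cells held 0 replication UMIs.

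Mcm3 was the member measured in both libraries, and it addresses whether the antibody went with a different level of a replication gene. In tumour cells the interval of its ratio held 1, with 48.0 CPM in antibody tumours (46.3 to 49.7) and 48.3 CPM in IgG tumours (46.7 to 49.8), a ratio of 0.994 (0.947 to 1.04). In macrophages it stood at 87.2 CPM with the antibody and 89.1 CPM with IgG (0.979, 0.823 to 1.17). In T cells it stood at 183 CPM with the antibody (165 to 201) and 137 CPM with IgG (116 to 160), a ratio of 1.33 (1.11 to 1.61). That ratio ranked 10th of 40 shared genes with at least 50 UMIs in T cells, of which 30.0% were more than 25% higher with the antibody too, so by this share Mcm3 was not unusual among them. In tumour cells 13.5% of 74 shared genes were more than 25% higher and 1.35% more than 20% lower, and in macrophages 12.2% of 49 each way. Without CD3_T the T cell ratio was 1.36 (1.13 to 1.65), where 30.8% of 39 shared genes were more than 25% higher. Mice cannot be told apart within a library, so the spread between mice is not part of any interval.

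Of the T cell clusters, CD8_T_1 and CD8_T_2 held enough cells in both libraries to be compared, and CD4_T and CD3_T did not. In CD8_T_1 Mcm3 had 215 CPM with the antibody (193 to 240) and 151 CPM with IgG (123 to 182), a ratio of 1.43 (1.15 to 1.80). It ranked 7th of 34 shared genes there, of which 35.3% were more than 25% higher. Taken as a mean over cells and not from summed UMIs, Mcm3 had a ratio of 1.15 in CD8_T_1. In CD8_T_2 it had 166 CPM with the antibody and 155 CPM with IgG (1.07, 0.727 to 1.58), where 8.33% of 12 shared genes were more than 25% higher, and the difference between these ratios was not tested. In the DC cluster Mcm3 was lower with the antibody, at 31.3 CPM (20.9 to 44.9) against 77.4 CPM with IgG (56.0 to 104), from 29 and 43 UMIs. That ratio of 0.404 (0.243 to 0.662) was the lowest of 25 shared genes, of which 16.0% were more than 20% lower. In Macrophage_1 it had 64.7 CPM with the antibody and 93.8 CPM with IgG (0.690, 0.502 to 0.951), where 20.6% of 34 shared genes were more than 20% lower and 2.94% more than 25% higher. Macrophage_2 (0.980, 0.768 to 1.26), Macrophage_3 (1.05, 0.636 to 1.72) and Macrophage_4 (1.16, 0.316 to 4.62) had intervals that hold 1, as did fibroblasts with endothelial cells (1.10, 0.690 to 1.78) and the cluster Fibroblast&Endothelial_1 (1.07, 0.632 to 1.84). In MDSC_1 to MDSC_4 only 2 antibody and 4 IgG UMIs of Mcm3 were found, at 2.44 CPM with the antibody and 12.3 CPM with IgG, too few UMIs to tell the libraries apart. MDSC_1 and MDSC_2 held 0 antibody and 2 IgG UMIs each, and MDSC_4 held 2 antibody and 0 IgG UMIs. The cluster Unknown, with hepatoma markers at 11812 CPM and neutrophil markers at 862 CPM in the antibody library, had 51.8 CPM with the antibody and 33.2 CPM with IgG (1.56, 1.11 to 2.21), where 34.9% of 43 shared genes were more than 25% higher.

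Over the 11 tumour clusters the order of Mcm3 was nearly the same in both libraries. Tumor_7 was highest in both, with 167 CPM with the antibody (156 to 179) and 176 CPM with IgG (166 to 187), and Tumor_1 lowest, with 12.9 CPM with the antibody and 13.0 CPM with IgG. Tumor_7 over Tumor_2 gave a Mcm3 ratio of 2.76 (2.48 to 3.06) with the antibody and 3.01 (2.73 to 3.31) with IgG, so for this member the difference between the clusters was found in both libraries. Spearman's rho between the libraries was 0.936 over the 11 clusters, a description, since cluster names were given to the cells of both libraries from expression. The interval of the antibody over IgG ratio held 1 in 10 of 11 tumour clusters. Among these, Tumor_2 had 60.7 CPM with the antibody and 58.6 CPM with IgG, and Tumor_4 had 62.8 CPM with the antibody and 51.7 CPM with IgG. Tumor_9 had 59.8 CPM with the antibody and 62.9 CPM with IgG, and Tumor_8 had 45.1 CPM with the antibody and 48.3 CPM with IgG. Tumor_11 had 44.9 CPM with the antibody and 39.9 CPM with IgG, and Tumor_3 had 34.9 CPM with the antibody and 33.2 CPM with IgG. Tumor_5 had 34.5 CPM with the antibody and 30.5 CPM with IgG, and Tumor_10 had 19.2 CPM with the antibody and 24.4 CPM with IgG. An interval that holds 1 does not show equal levels, and some were wide, as in Tumor_10 (0.579 to 1.06) and Tumor_4 (0.878 to 1.68). Only the interval of Tumor_6 did not hold 1, with 24.1 CPM with the antibody and 37.3 CPM with IgG (0.646, 0.525 to 0.794). In Tumor_6, 9.43% of 53 shared genes were more than 20% lower. Of 30 classes and clusters compared, which overlap, 5 had intervals above 1 and 3 below it.

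**Figure D5:**
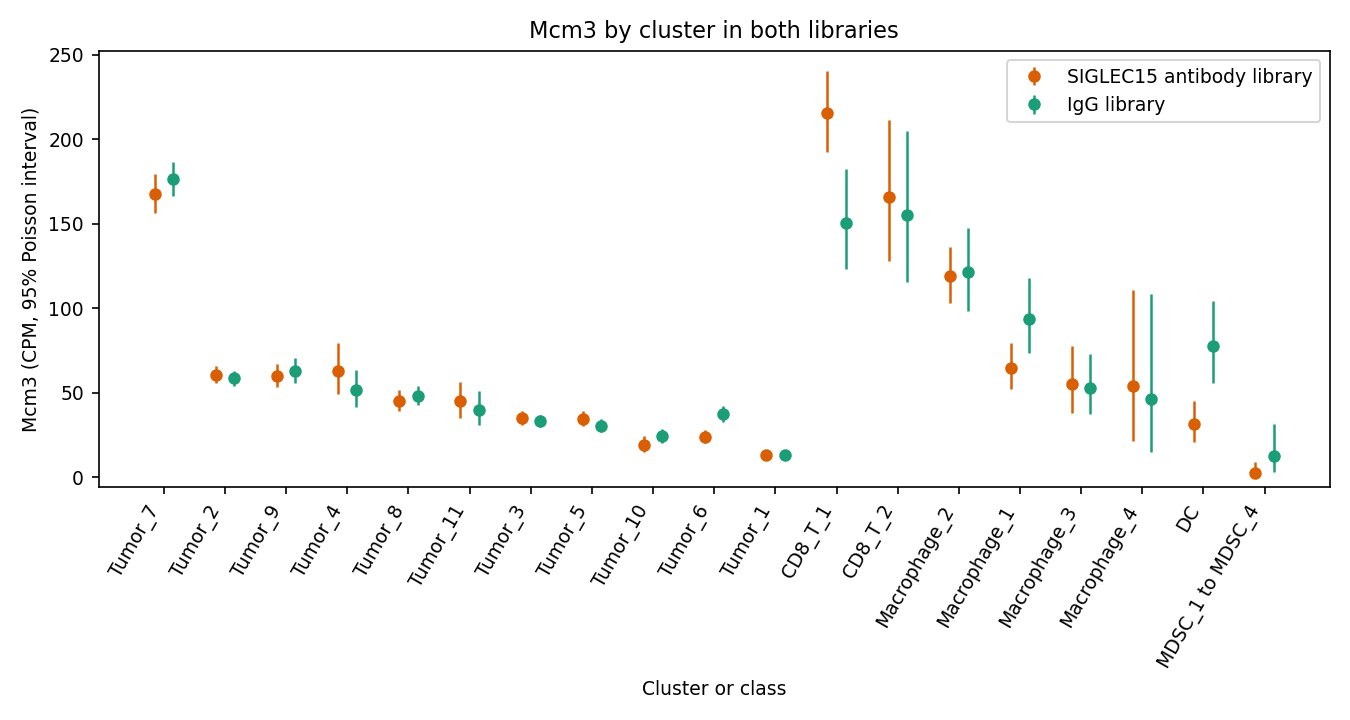
Mcm3 in CPM, with 95% Poisson intervals, in clusters of the SIGLEC15 antibody library (orange, left) and of the IgG library (green, right) and in MDSC_1 to MDSC_4. The libraries overlap in most tumour clusters, with Tumor_7 highest in both (167 CPM with the antibody, 176 CPM with IgG). In UMIs summed over cells, CD8_T_1 is higher with the antibody (215 CPM against 151 CPM with IgG), a difference that was smaller as a mean over cells. The DC cluster is lower with the antibody (31.3 CPM against 77.4 CPM with IgG), as is Tumor_6 (24.1 CPM against 37.3 CPM with IgG).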

How the data were processed

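Each deposited table held 1 library, with genes in rows and cells in columns, as natural log values that the authors had normalized per cell. The values matched ln(1 + 10000 × UMIs of the gene / UMIs of the cell), and whole UMIs were recovered from them. A cell's depth was accepted only if every value lay within 0.001 UMI of a whole number, so accepted cells meet that limit by construction. Such a depth, equal to the cell's UMI sum, was found for all 5482 antibody cells. In the IgG library each cell's depth came from the steps of its 105 complete genes, and 26 of 5765 cells gave none. The same method on the antibody library gave the true depth in 5440 cells, another depth in 8 and none in 34, and the Mcm3 comparison used 5448 antibody and 5739 IgG cells. Per the submitters' processing notes the reads went through Cell Ranger 2.1.1, and the genome build is not given in the sources used here. Cluster names are the authors' deposited ones.

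UMIs were summed per cluster or class and divided by the summed depth (CPM), in cells with at least 500 UMIs. Intervals are exact Poisson for levels, exact conditional for ratios and Clopper-Pearson for expected shares of cells thinned to 1000 UMIs, each at 95%. A gene entered a contrast with at least 10 UMIs over both sides. Medians of log2 ratios used a prior count of 0.5. With 1 library per group no test was run. Scrublet called 3 of 5482 cells doublets, a share of 0.0547%, so the call was not used as a filter. Named in each class were the 3 highest members of each list and the 3 with the largest and the smallest ratio, with the leading cluster's 3 largest ratios and up to 4 further pathway genes; other named genes were chosen after their values were seen. The members and lists were chosen with earlier results of these data known. The steps were tested on simulated data. Alternatives covered depth minimums, means over cells, other totals, thinning depths, fold thresholds, gene sets and cells left out. Python 3.11.15, numpy 2.4.6, pandas 2.3.3, scipy 1.17.1, scanpy 1.11.5 and matplotlib 3.10.9 were used.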

Additional observations from a re-analysis of the deposited data

Results flagged for a closer look

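The ratio of Mcm3 in the antibody library over the IgG library had an interval away from 1 in T cells, 1 of their clusters, the DC cluster, Macrophage_1, Tumor_6 and Unknown, as also over all cells (1.06) and in T cells without CD3_T (1.36). That of tumour cells as a class held 1, and each cell pool gives 1 value per library, so the difference between these ratios was not tested. Mcm3 was higher with the antibody in T cells (1.33), in CD8_T_1 within them (1.43) and in the cluster Unknown (1.56). It was lower with the antibody in the DC cluster (0.404), in Macrophage_1 (0.690) and in Tumor_6 (0.646). In CD8_T_1 the ratio was 1.15 as a mean over cells, and in Unknown it was also 1.15. The median antibody cell of Unknown held 20025 UMIs and the median IgG cell 12127 UMIs, and the part of depth in its ratio was not tested.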

How the results depend on the processing

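No paired analysis was possible because there was 1 library per group. Of 275 values recomputed under an alternative, 210 stayed within the intervals or limits of the reported value, 65 moved and 0 changed sign. As a mean over cells, tumour cells had 763 CPM replication, 2421 CPM mitotic and a log2 ratio of mitotic to replication of 1.67. T cells then had 1835 and 5111 CPM and macrophages 908 and 2788 CPM. Members more than 2-fold lower in tumour cells then numbered 4, and in macrophages 3 were higher and 1 lower. With mitochondrial and ribosomal protein genes out of the totals, the sums were 1135 and 3477 CPM in tumour cells, 3515 and 9594 CPM in T cells and 1294 and 4111 CPM in macrophages. The counts were then 3 lower in tumour cells and 2 higher and 2 lower in macrophages. Without Tubb5, Hmgb2, Cks2 and Dut, the sums and log2 ratio were 618 CPM, 1081 CPM and 0.81 in tumour cells, 1895 CPM, 3171 CPM and 0.74 in T cells, and 908 CPM, 1605 CPM and 0.82 in macrophages. Without Tumor_4 the tumour sums were 725 and 2214 CPM, and without CD3_T the T cell sums were 2639 and 7298 CPM. At 2000 or more UMIs per cell T cells had 2654 and 7300.4 CPM. With T cells and macrophages that held markers of the other left out, an alternative added after seeing the data, T cells had 2398 and 6425 CPM and macrophages 764 and 2689 CPM, with a log2 ratio of 1.81 in macrophages. The counts were then 4 lower in tumour cells and 4 higher and 3 lower in macrophages, and thinned shares of macrophages were 41.5% replication, now below the 45.1% of tumour cells, and 65.1% mitotic. At a fold of 1.5, 24 members were lower in tumour cells, and 21 higher and 2 lower in macrophages. Shares over all genes are not given for any of these alternative counts, so the counts are not read against all genes. Shares of cells with a replication and with any of the 24 mitotic genes followed depth: thinned to 500 UMIs they were 28.4% and 54.2% in tumour cells, 49.8% and 67.3% in T cells, and 31.7% and 55.6% in macrophages. At 2000 UMIs they were 63.8% and 86.5%, 88.1% and 95.005%, and 66.5% and 85.7% in the same order, and without thinning 97.4% and 99.4%, 80.6% and 90.4%, and 82.1% and 92.9%. Except for the shares tied to depth, the cause of these moves was not tested. Leaving out the highest 5% of doublet scores (also added after seeing the data), a minimum of 1000 UMIs per cell and, for Mcm3, weighting clusters alike or setting the median shared gene to a ratio of 1 moved none of the values recomputed. The order of both sums, T cells highest, then macrophages, then tumour cells, held under every alternative to these sums that was run.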
